A study of Mus musculus with 13 samples.

Results

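The ribosome biogenesis genes examined here are a list of 43 genes whose products make and process ribosomal RNA and assemble the ribosomal subunits in the nucleolus. They were measured in mouse P14 CD8+ T cells on oligonucleotide arrays. Members were found by gene symbol, and each gene was read from its brightest probe set, averaged over all arrays. Of the 43 genes, 41 had a probe set assigned to 1 gene, among 18194 genes measured in all. Npm3 had no assigned probe set, the only probe set of Mrto4 is shared with pseudogene copies, and neither was used. The series holds 13 arrays in 4 groups, which are Batf-/- cells at day 3 (4 arrays), wild-type cells at day 3 (4 arrays), Batf-/- naive cells (3 arrays) and wild-type naive cells (2 arrays). Cells of all groups carried the P14 T cell receptor transgene on the C57Bl/6 background and were isolated by magnetic negative selection for CD8. Day 3 cells were stimulated on plates coated with anti-CD3 and anti-CD28, with IL-2 at 100 U/ml, and naive cells were taken at day 0. The labels do not describe the Batf-/- allele further, and no age is given. They also do not say whether the arrays of a group came from separate mice or cultures, so p-values measure the spread between these arrays, which may be technical.

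Ribosome synthesis begins when RNA polymerase I transcribes the ribosomal RNA precursor. Small nucleolar ribonucleoproteins (snoRNPs) modify the precursor, the box C/D class by methylation of riboses and the box H/ACA class by pseudouridylation, and large assemblies cleave it and fold it into the small and the large subunit. T cells that leave quiescence build up this machinery to sustain growth and division, and the transcription factor Myc drives many of its genes. Batf belongs to the AP-1 factors and binds DNA together with Jun proteins in activated lymphocytes.

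Array medians lay between 31.5 and 32.5 on the linear intensity scale, and gene values below are log2 intensities, while sums of markers are linear. All 41 genes were bright, with group means between 6.38 and 13.6, against a log2 intensity of 4.35 that marks the dimmest 40% of probe sets. Batf had 6.77, 5.56, 5.61 and 6.00 in Batf-/- day 3 arrays and 8.63, 8.80, 8.83 and 9.19 in wild-type day 3 arrays. In naive arrays it had 5.60, 6.06 and 5.94 in Batf-/- and 9.19 and 9.36 in wild type, so no Batf-/- array overlapped a wild-type array. The 5 measured CD8 T cell markers were bright in every group. Naive arrays had higher summed markers of B cells, plasma cells, NK cells, neutrophils, monocytes, dendritic cells, erythroid cells and platelets than day 3 arrays. The summed intensity of 7 B cell markers was 357 to 376 in Batf-/- day 3, 320 to 383 in wild-type day 3, 2503 to 4225 in Batf-/- naive and 1459 to 2303 in wild-type naive arrays. That of 5 neutrophil markers was 97.6 to 101 in Batf-/- day 3, 99.9 to 105 in wild-type day 3, 159 to 4670 in Batf-/- naive and 256 to 484 in wild-type naive arrays. In Batf-/- naive replicate 1, which had the highest neutrophil sum, 30 of the 41 genes were at their highest within the group. The share of all genes at their highest there was not computed. The median over all genes was 6.02 in that array, against 5.92 and 5.97 in the others of the group. That array also had the highest sum of 7 proliferation markers in the group (14369). Its Cd8a was lowest, at 11.66 against 12.38 and 12.27. The part of these traits in the values was not tested.

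Setting Batf-/- against wild-type cells at day 3 addresses what loss of Batf changes once T cells are stimulated. By the test across all genes 4 of 41 ribosome biogenesis genes rose in Batf-/- day 3 cells and 37 did not pass. Those that rose were the box C/D snoRNP genes Nop56 and Fbl, the small subunit gene Utp20 and the large subunit gene Ppan, and 0 fell (0 also at an unadjusted p below 0.05). Among all genes 0.665% were called higher and 0.709% lower. The median difference of the 41 genes was 0.18, against 0.01 over all genes, and 39 of 41 differences were above 0, against 55.5% of all genes. The test was limma's moderated two-sided test with Benjamini-Hochberg adjustment over 18194 genes, with an adjusted p below 0.05 counted as passed. In bulk RNA fewer cells of a type and less RNA per cell cannot be told apart.

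Summed markers of 3 other cell types differed without overlap in this comparison, at low levels. The sum of 5 monocyte and macrophage markers was 222 to 243 in Batf-/- day 3 arrays and 184 to 209 in wild-type day 3 arrays, with 2 of 5 dim in Batf-/- and 3 of 5 in wild-type cells. Its brightest gene, Cd68, had a mean log2 intensity of 6.77 in Batf-/- and 6.42 in wild type. Lyz2 alone of the 5 went the other way (4.18 and 4.29). The sum of 2 erythroid markers was 38.5 to 46.2 in Batf-/- and 33.6 to 37.6 in wild-type day 3 arrays, with 1 of 2 dim in each. It followed Alas2 (4.96 in Batf-/- and 4.56 in wild type), while Hba-a1 was at 3.57 and 3.55. No monocyte or erythroid marker passed by limma. The sum of 4 plasma cell markers was 346 to 358 in Batf-/- and 367 to 420 in wild-type day 3 arrays, with 2 of 4 dim in each. This sum followed its brightest gene, Prdm1, whose mean log2 intensity was 8.16 in Batf-/- and 8.41 in wild-type day 3 arrays. The other plasma cell markers went the other way. Jchain was at 4.03 in Batf-/- and 3.64 in wild type, Tnfrsf17 at 3.54 and 3.35, and Sdc1 at 5.22 and 5.01. None of the 4 passed by limma. The mean of the CD8 T cell markers was 11.83 to 11.97 in Batf-/- and 11.93 to 12.03 in wild-type day 3 arrays. The part of these markers in the result was not tested.

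Nop56 codes for a core protein of box C/D snoRNPs. Its log2 intensity was 10.39, 10.45, 10.38 and 10.39 in Batf-/- day 3 arrays, against 10.09, 10.06, 10.01 and 10.17 in wild-type day 3 arrays. The lowest Batf-/- array was above the highest wild-type array. The difference was 0.32 ± 0.07 (SE, n = 4 and 4), or 1.25-fold, with limma's adjusted p = 0.0333.

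Fbl, or fibrillarin, is the methyltransferase of the same particles. It had 11.44, 11.41, 11.44 and 11.43 in Batf-/- day 3 arrays, against 11.17, 11.22, 11.18 and 11.09 in wild-type day 3 arrays. The groups did not overlap, and the difference was 0.26 ± 0.06 (limma, adjusted p = 0.0399). For the mean over its probe sets the difference was 0.23 and did not pass (adjusted p = 0.0693).

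Utp20 codes for a large scaffold protein of the complex that processes the small subunit precursor. It had 7.65, 7.74, 7.54 and 7.50 in Batf-/- day 3 arrays, against 7.26, 7.42, 7.18 and 7.31 in wild-type day 3 arrays. The groups lay next to each other without overlap, and the difference was 0.32 ± 0.07 (limma, adjusted p = 0.0382).

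Ppan codes for a nucleolar protein needed for large subunit maturation. It had 7.52, 7.68, 7.69 and 7.60 in Batf-/- day 3 arrays, against 7.33, 7.35, 7.28 and 7.38 in wild-type day 3 arrays. The groups again did not overlap, and the difference was 0.29 ± 0.06 (limma, adjusted p = 0.0412).

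**Figure D1:**
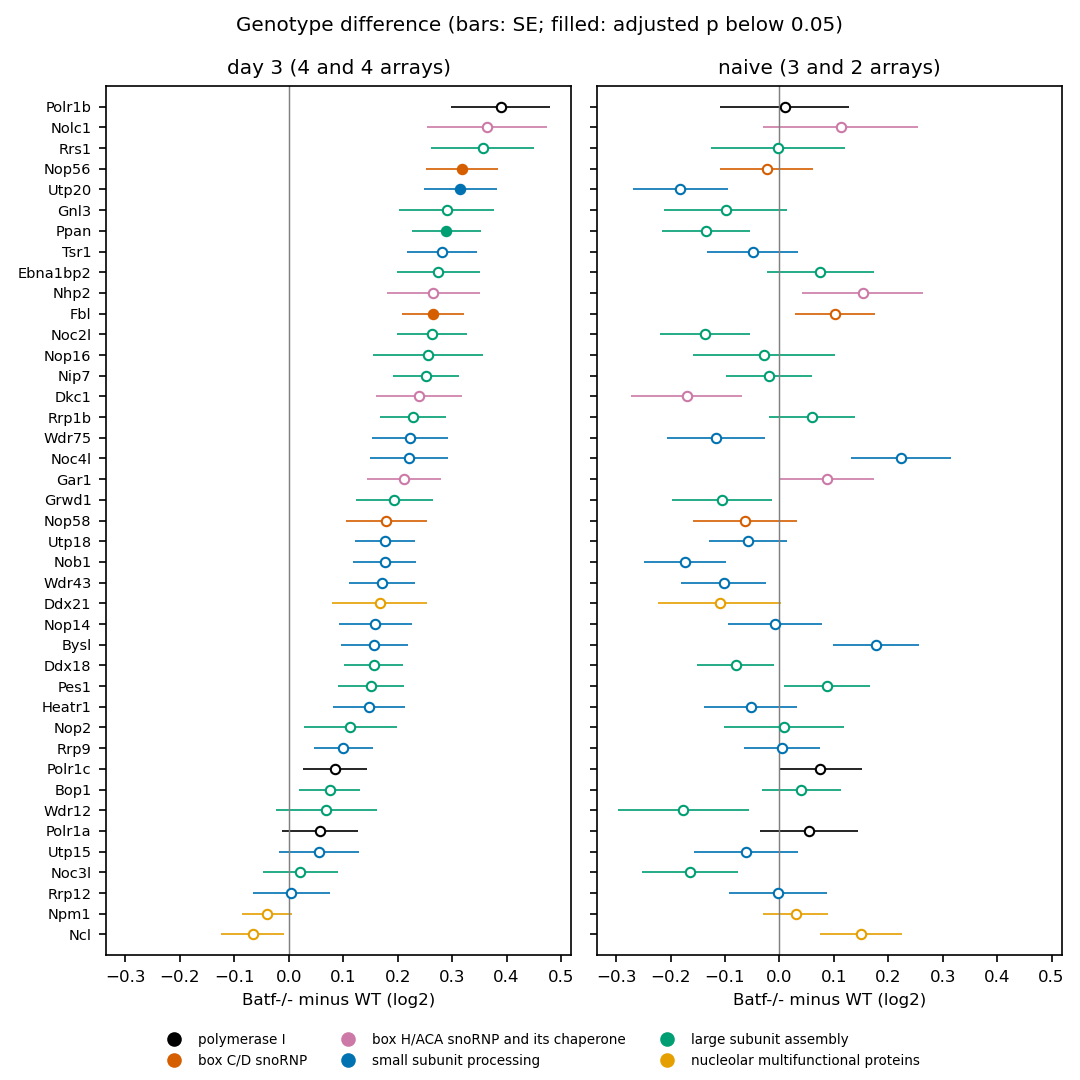
Difference Batf-/- minus wild type (log2, horizontal axis) for each of the 41 genes (vertical axis, ordered by the day 3 difference) at day 3 on the left and in naive cells on the right, with bars for the SE and filled points for an adjusted p below 0.05. At day 3, 39 of 41 points lie to the right of 0 and 4 are filled, while naive differences lie on both sides of 0 and none is filled.

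The genes that did not pass at day 3 were spread over all roles. Of the 3 genes for subunits of RNA polymerase I, Polr1b, the second largest subunit, had the largest difference of all members (0.39 ± 0.09, adjusted p = 0.061), while Polr1a was at 0.06 and Polr1c, which polymerase III also uses, at 0.09. Nop58, the partner of Nop56, was at 0.18. Among box H/ACA genes the chaperone Nolc1 was at 0.36, Nhp2 at 0.27, the pseudouridine synthase Dkc1 at 0.24 and Gar1 at 0.21. The 13 small subunit genes ranged from 0.005 for Rrp12 to 0.32 for Utp20. The 15 large subunit genes ranged from 0.02 for Noc3l to 0.36 for Rrs1. The abundant nucleolar proteins Ncl (nucleolin, -0.07) and Npm1 (nucleophosmin, -0.04) had the 2 differences below 0.

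Separation between the arrays was wider than the count of calls. In 27 of 41 genes every Batf-/- day 3 array was above every wild-type day 3 array, and in none was it the reverse. Over all genes these shares were 7.44% and 5.34%. Before adjustment 29 of 41 genes had a p below 0.05 and were higher, against 7.19% of all genes. In 19 genes the 3 levels were ordered without overlap, with wild-type day 3 lowest, Batf-/- day 3 next and all 5 naive arrays highest, which held for 2.09% of all genes.

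The count of calls differed between settings. When every probe set was tested on its own, Tsr1 passed on its second probe set (0.29, adjusted p = 0.0347), where 0.33% of all probe sets were called higher. The probe sets used for the 4 genes above did not pass there, with limma's adjusted p = 0.0565 for Nop56, 0.0617 for Utp20, 0.0711 for Ppan and 0.0739 for Fbl. With the 8 day 3 arrays alone 16 of 41 genes were higher (2.01% of all genes). These were Polr1b, Nop56, Fbl, Gar1, Nhp2, Nolc1, Utp20, Noc4l, Tsr1, Nop16, Rrp1b, Noc2l, Nip7, Ebna1bp2, Ppan and Gnl3, all at adjusted p-values between 0.00586 and 0.049 by limma. With weights for array quality 21 were higher, against 3.81% of all genes. Without 1 array the count was 16 (Batf-/- naive replicate 1), 6 (Batf-/- naive replicate 2), 3 (Batf-/- day 3 replicate 1), 1 (either wild-type naive replicate, Batf-/- naive replicate 3, Batf-/- day 3 replicate 4, or wild-type day 3 replicate 2 or 4) or 0 (Batf-/- day 3 replicate 2 or 3, or wild-type day 3 replicate 1 or 3). Over the 13 arrays left out in turn, Nop56 still passed 6 times, Utp20 4 times, Ppan 3 times and Fbl 2 times. The shares of all genes called without 1 array were not computed. The difference was above 0 for 37 genes in all 23 alternative settings, and Rrp12 and Noc3l changed sign in some. Other estimates of the spread, the day 3 arrays alone and calls of at least 2-fold cannot change this difference. Leaving out a naive array can change it only where another probe set becomes the brightest. The settings are therefore not 23 separate checks of the sign.

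Batf-/- day 3 replicate 1 stood apart from the other arrays of its group in Batf itself, at 6.77 against 5.56 to 6.00. It had the lowest value of the group for 19 of the 41 genes and the highest for 11. The shares of all genes at their lowest or highest there were not computed. The median over all genes was 6.00 in that array, against 5.96 to 5.97 in the others of the group. Without replicate 1 the median difference of the 41 genes was 0.20. Its part in the spread of the group was not tested.

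To show the stretches from which these genes are transcribed, RefSeq promoter sequences of build GRCm38.p6 are printed for the members that rose and have an entry, as the 100 bases before the annotated start on the gene's strand. These are Nop56 (chr2:130274312-130274411, plus strand), Utp20 (chr10:88826815-88826914, minus strand) and Ppan (chr9:20888075-20888174, plus strand).
Nop56: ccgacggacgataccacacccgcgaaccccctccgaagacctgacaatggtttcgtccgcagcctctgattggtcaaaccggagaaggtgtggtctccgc
Utp20: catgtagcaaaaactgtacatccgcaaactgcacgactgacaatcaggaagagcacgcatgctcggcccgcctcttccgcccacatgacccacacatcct
Ppan: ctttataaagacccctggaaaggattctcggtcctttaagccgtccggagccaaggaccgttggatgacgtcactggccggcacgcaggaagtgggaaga
Their GC content was 61% for Nop56, 55% for Utp20 and 56% for Ppan, and the median was 61.5% over the 42 windows of members and 55% over all 32851 windows.

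The E-box CACGTG, the motif that Myc and Max bind, was searched in windows from 250 bases before to 50 after the start, and since it is its own reverse complement both strands are covered. It was found in 7 of the 38 members with an entry (18.4%) and in 8.09% of the 27025 genes in the table. The sites are shown as 30 bases with the motif in capitals, since the genes that hold it differ in how far they changed below. Coordinates are chr10:88826765-88826794 for Utp20, chr11:93885769-93885798 for Utp18, chr17:71616220-71616249 for Wdr43, chr11:74898092-74898121 for Tsr1, chr11:3963965-3963994 for Pes1, chr6:125131811-125131840 for Nop2 and chr7:45830740-45830769 for Grwd1.
Utp20, minus strand: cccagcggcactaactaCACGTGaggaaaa
Utp18, minus strand: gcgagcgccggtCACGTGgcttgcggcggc
Wdr43, plus strand: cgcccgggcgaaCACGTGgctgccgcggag
Tsr1, plus strand: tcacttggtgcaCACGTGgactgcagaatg
Pes1, plus strand: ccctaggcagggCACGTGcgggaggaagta
Nop2, plus strand: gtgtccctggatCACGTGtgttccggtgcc
Grwd1, minus strand: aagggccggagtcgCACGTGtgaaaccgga
Relative to the start, the motif begins at -60 in Nop2 and at -20 in Utp18, and after the start in the other 5. The AP-1 motif TGANTCA, which is its own reverse complement too, was found in 0 of the 38 members and in 8.97% of all genes. A match, or the lack of one, describes the letters of this window and says nothing about a factor.

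Naive cells of the 2 genotypes were set against each other to see what differed before stimulation. No ribosome biogenesis gene passed between Batf-/- and wild-type naive cells by limma, and 3 of 41 had an unadjusted p below 0.05, against 13.6% of all genes. By adjusted p 0.813% of all genes were called higher and 0.264% lower. Differences ran from -0.18 for Utp20 and Wdr12 to 0.22 for Noc4l, with a median of -0.02 for the 41 genes and 0.00 for all genes.

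Noc4l, whose product helps to build the small subunit, was at 8.65, 8.30 and 8.31 in Batf-/- naive arrays and 8.18 and 8.21 in wild-type naive arrays. Dkc1 was at 11.46, 11.32 and 11.36 in Batf-/- naive arrays and 11.47 and 11.63 in wild-type naive arrays. Groups without overlap were seen for 2 genes higher in Batf-/- (Noc4l and Bysl, against 11.8% of all genes) and 5 lower (Dkc1, Utp20, Nob1, Noc3l and Ddx18, against 12.7% of all genes). Summed markers of 4 other cell types differed without overlap between these groups. These were B cells, as given above, plasma cells (8409 to 10463 in Batf-/- and 5464 to 7138 in wild type), NK cells (1277 to 3425 in Batf-/- and 988 to 1070 in wild type) and erythroid cells (115 to 196 in Batf-/- and 53.5 to 91.7 in wild type). Their part in these values was not tested.

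The comparisons of day 3 with naive cells ask how stimulation changed these genes in each genotype. Most ribosome biogenesis genes were lower after 3 days of stimulation in both genotypes. In Batf-/- cells 29 of 41 fell and 1 rose, and in wild-type cells 36 fell and 2 rose. Of all genes 23.2% fell and 23.8% rose in Batf-/- cells, and 23% fell and 22.4% rose in wild-type cells. The median difference was -0.60 in Batf-/- and -0.71 in wild-type cells, against 0.05 over all genes in each. In 29 genes every Batf-/- day 3 array was below every Batf-/- naive array (23.2% of all genes), and in 37 the same held for wild-type arrays (28%). For 2 genes, Ncl and Npm1, every day 3 array was above every naive array in each genotype (25% of all genes in Batf-/- and 30.3% in wild-type cells). A fall of at least 2-fold was called for 8 members in Batf-/- cells (4.86% of all genes) and 11 in wild-type cells (5.39% of all genes).

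**Figure D2:**
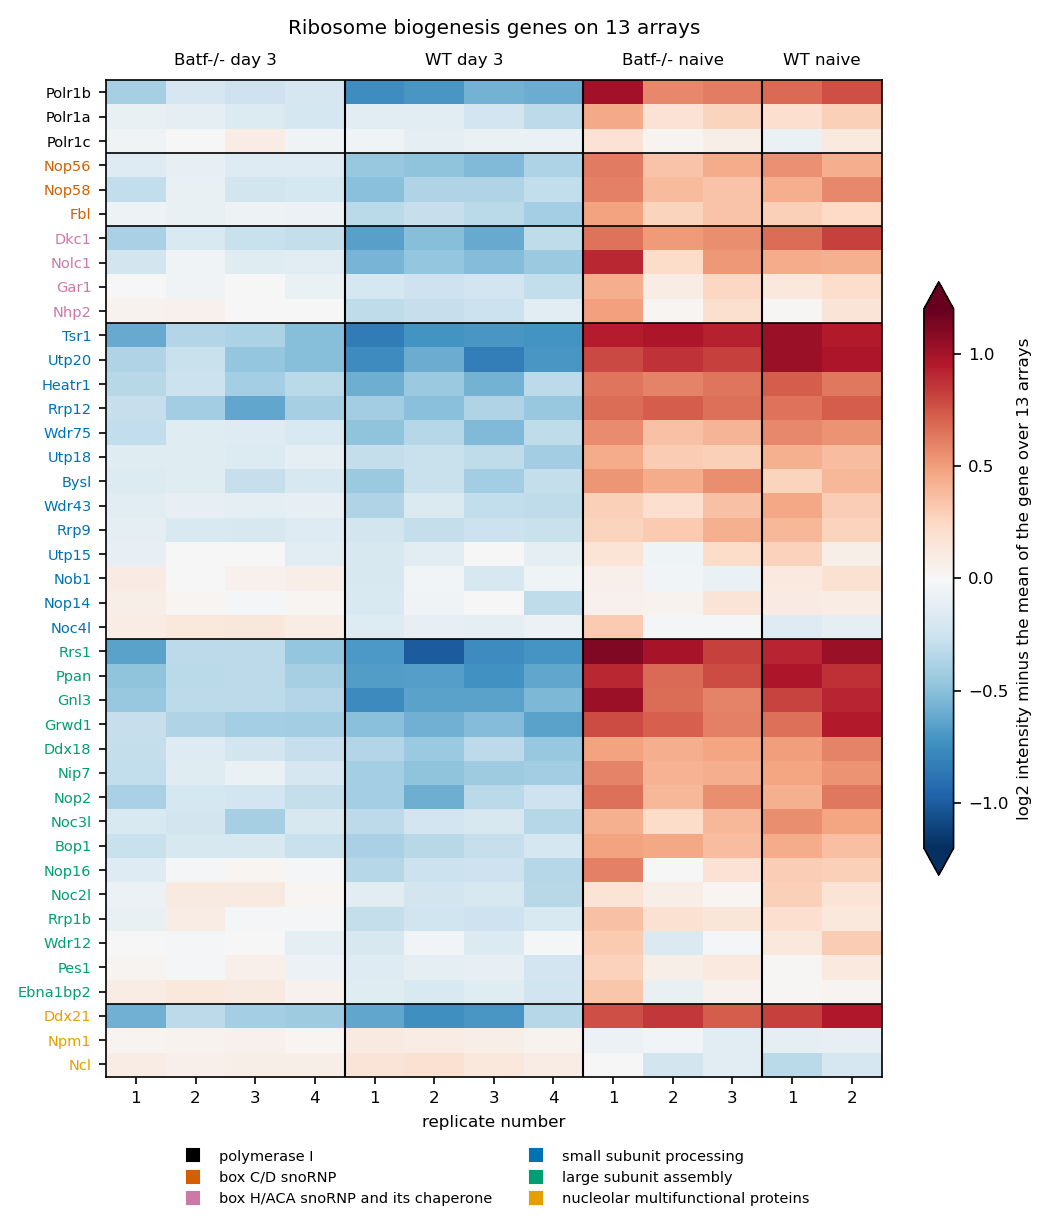
Log2 intensity of each of the 41 genes (rows, grouped by role and coloured by it) on each of the 13 arrays (columns, by group and replicate), as the difference from the mean of the gene over all arrays. Naive arrays are red and day 3 arrays blue for most genes, wild-type day 3 arrays are mostly the darkest blue, and Ncl and Npm1 run the other way.

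The values are relative to the other RNA on the same array, since the arrays were normalised to each other. A lower value therefore does not say that a day 3 cell held fewer transcripts. Cell type composition moved with the comparison as well, as given above for B cell, plasma cell, neutrophil and other markers. The summed intensity of 7 proliferation markers was 35097 to 35973 in Batf-/- day 3, 34795 to 35722 in wild-type day 3, 7567 to 14369 in Batf-/- naive and 8465 to 9228 in wild-type naive arrays. The part of these differences in the results was not tested.

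RNA polymerase I genes differed among themselves. Polr1b was at 6.83, 7.03, 6.99 and 7.03 in Batf-/- day 3 arrays against 8.24, 7.81 and 7.85 in Batf-/- naive arrays. It was at 6.49, 6.53, 6.67 and 6.63 in wild-type day 3 arrays against 7.91 and 8.01 in wild-type naive arrays. No day 3 array reached a naive one. The fall was -0.997 ± 0.10 in Batf-/- cells (limma, adjusted p = 1.96e-06) and -1.38 ± 0.11 in wild-type cells (adjusted p = 3.64e-07). Polr1a, the largest subunit, fell by less (-0.44 in Batf-/- and -0.45 in wild-type cells).

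Polr1c had the smallest difference of the 3 genes. It was at 9.33, 9.38, 9.46 and 9.34 in Batf-/- day 3 arrays against 9.56, 9.41 and 9.45 in Batf-/- naive arrays. It was at 9.33, 9.26, 9.30 and 9.30 in wild-type day 3 arrays against 9.30 and 9.49 in wild-type naive arrays. These groups overlapped, and Polr1c did not pass in either genotype (-0.09 and -0.10).

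All 3 box C/D genes fell in both genotypes. Nop56 was at 11.17, 10.88 and 10.99 in Batf-/- naive arrays and 11.09 and 10.98 in wild-type naive arrays, above all of its day 3 values. Its change was -0.61 ± 0.07 in Batf-/- and -0.95 ± 0.08 in wild-type cells. Fbl, with 11.99, 11.77 and 11.84 in Batf-/- naive and 11.78 and 11.74 in wild-type naive arrays, changed least, by -0.43 ± 0.06 in Batf-/- and -0.60 ± 0.07 in wild-type cells. Nop58 changed by -0.65 in Batf-/- and -0.89 in wild-type cells.

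Box H/ACA genes fell too, with Nhp2 on its brightest probe set passing the test in wild-type cells only. Dkc1 was at 10.42, 10.62, 10.55 and 10.52 in Batf-/- day 3 arrays and 10.15, 10.29, 10.21 and 10.50 in wild-type day 3 arrays, all below its naive values given above. It fell in both genotypes (-0.85 in Batf-/- and -1.26 in wild-type cells). Nhp2, an RNA-binding subunit, was at 11.10, 11.11, 11.06 and 11.06 in Batf-/- day 3 arrays against 11.56, 11.09 and 11.25 in Batf-/- naive arrays, which overlap. It was at 10.76, 10.78, 10.81 and 10.93 in wild-type day 3 arrays against 11.08 and 11.21 in wild-type naive arrays, which do not. The differences were -0.22 (limma, adjusted p = 0.0731) in Batf-/- and -0.33 (adjusted p = 0.0206) in wild-type cells, and whether they differ from each other did not pass (adjusted p = 0.822). With every probe set tested on its own, a second Nhp2 probe set fell in both genotypes. Its fall was -0.35 in Batf-/- (limma, adjusted p = 0.0249) and -0.48 in wild-type cells (adjusted p = 0.00847).

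Of the 13 small subunit genes, 9 fell in Batf-/- cells and 12 in wild-type cells. Tsr1, a protein with homology to GTPases that acts late in small subunit maturation, changed most. It was at 8.85, 9.11, 9.07 and 8.95 in Batf-/- day 3 arrays against 10.40, 10.42 and 10.37 in Batf-/- naive arrays. It was at 8.61, 8.74, 8.76 and 8.74 in wild-type day 3 arrays against 10.49 and 10.41 in wild-type naive arrays. The groups were far apart, with a 2.65-fold fall in Batf-/- cells (-1.41 ± 0.07, limma, adjusted p = 3.61e-09) and a 3.33-fold fall in wild-type cells (-1.74 ± 0.08, adjusted p = 2.1e-09).

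Utp20 was close behind, at 8.80, 8.87 and 8.83 in Batf-/- naive arrays and 9.05 and 8.98 in wild-type naive arrays. Its fall was -1.23 in Batf-/- and -1.72 in wild-type cells. Rrp12, which helps to export subunits, fell alike in both (-1.11 in Batf-/- and -1.12 in wild-type cells). Heatr1, which is needed for polymerase I transcription as well, also fell (-0.96 in Batf-/- and -1.16 in wild-type cells). Noc4l did not pass in either genotype, with 8.42, 8.46, 8.47 and 8.42 in Batf-/- day 3 arrays and 8.18, 8.23, 8.21 and 8.26 in wild-type day 3 arrays beside its naive values above. Of the genes with an E-box printed above, wild-type changes were -0.21 for Pes1, -0.67 for Wdr43, -0.72 for Utp18, -0.92 for Nop2, -1.37 for Grwd1, -1.72 for Utp20 and -1.74 for Tsr1, so holding the motif went with large and small changes.

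Of the 15 large subunit genes, 11 fell in Batf-/- cells and 14 in wild-type cells. Rrs1, a regulator of assembly that helps to load a small ribosomal RNA onto the large subunit, changed most. It was at 8.69, 9.01, 9.01 and 8.87 in Batf-/- day 3 arrays against 10.44, 10.32 and 10.15 in Batf-/- naive arrays. It was at 8.64, 8.33, 8.57 and 8.62 in wild-type day 3 arrays against 10.24 and 10.36 in wild-type naive arrays. The falls were 2.65-fold in Batf-/- cells (-1.41 ± 0.10, limma, adjusted p = 1.21e-07) and 3.40-fold in wild-type cells (-1.76 ± 0.12, adjusted p = 5.93e-08).

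Ppan was at 8.90, 8.68 and 8.79 in Batf-/- naive arrays and 8.97 and 8.88 in wild-type naive arrays, and fell in both genotypes (-1.17 in Batf-/- and -1.59 in wild-type cells). Gnl3 (nucleostemin), a GTPase of proliferating cells, fell too (-1.12 in Batf-/- and -1.51 in wild-type cells). The PeBoW complex joins Pes1, Bop1 and Wdr12 in processing of large subunit RNA. On its brightest probe set Bop1 fell in both genotypes (-0.67 in Batf-/- and -0.71 in wild-type cells). Pes1 was at -0.15 in Batf-/- cells, which did not pass, and fell by 0.21 in wild-type cells. Wdr12 was at -0.07 in Batf-/- cells, which did not pass, and fell by 0.32 in wild-type cells. Other probe sets gave larger falls, with -1.27 in Batf-/- and -1.78 in wild-type cells for Bop1 and -1.58 in Batf-/- and -2.35 in wild-type cells for Wdr12.

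Ebna1bp2 was the large subunit gene with the smallest change and passed in neither genotype. It was at 9.56, 9.59, 9.58 and 9.52 in Batf-/- day 3 arrays against 9.80, 9.37 and 9.52 in Batf-/- naive arrays. It was at 9.32, 9.28, 9.32 and 9.22 in wild-type day 3 arrays against 9.48 and 9.50 in wild-type naive arrays. The Batf-/- values of both states overlapped, and the wild-type values did not.

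The nucleolar proteins with several functions did not move together. Ddx21, an RNA helicase that links polymerase I and II transcription, was at 8.73, 8.98, 8.89 and 8.87 in Batf-/- day 3 arrays against 10.07, 10.15 and 10.03 in Batf-/- naive arrays. It was at 8.68, 8.57, 8.60 and 8.96 in wild-type day 3 arrays against 10.12 and 10.27 in wild-type naive arrays. It fell 2.32-fold in Batf-/- and 2.81-fold in wild-type cells.

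Ncl and Npm1 had higher values at day 3. Npm1, a chaperone that shuttles between nucleolus and cytoplasm, was at 13.59, 13.59, 13.60 and 13.57 in Batf-/- day 3 arrays against 13.48, 13.51 and 13.42 in Batf-/- naive arrays. It was at 13.65, 13.64, 13.62 and 13.59 in wild-type day 3 arrays against 13.43 and 13.45 in wild-type naive arrays. The states did not overlap in either genotype, but the rise passed in wild-type cells (0.19 ± 0.06, limma, adjusted p = 0.0154) and not in Batf-/- cells (0.12 ± 0.05, adjusted p = 0.0728). This split held for the brightest probe set only. With every probe set tested on its own, a second Npm1 probe set rose in both genotypes. Its rise was 0.47 in Batf-/- (limma, adjusted p = 3.35e-05) and 0.60 in wild-type cells (adjusted p = 1.07e-05). Ncl, which binds ribosomal RNA and its promoter chromatin, rose by 0.19 in Batf-/- and by 0.40 in wild-type cells, and is described although its values were seen first. For the mean over its probe sets its sign changed, with -0.13 in Batf-/- and -0.04 in wild-type cells.

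**Figure D3:**
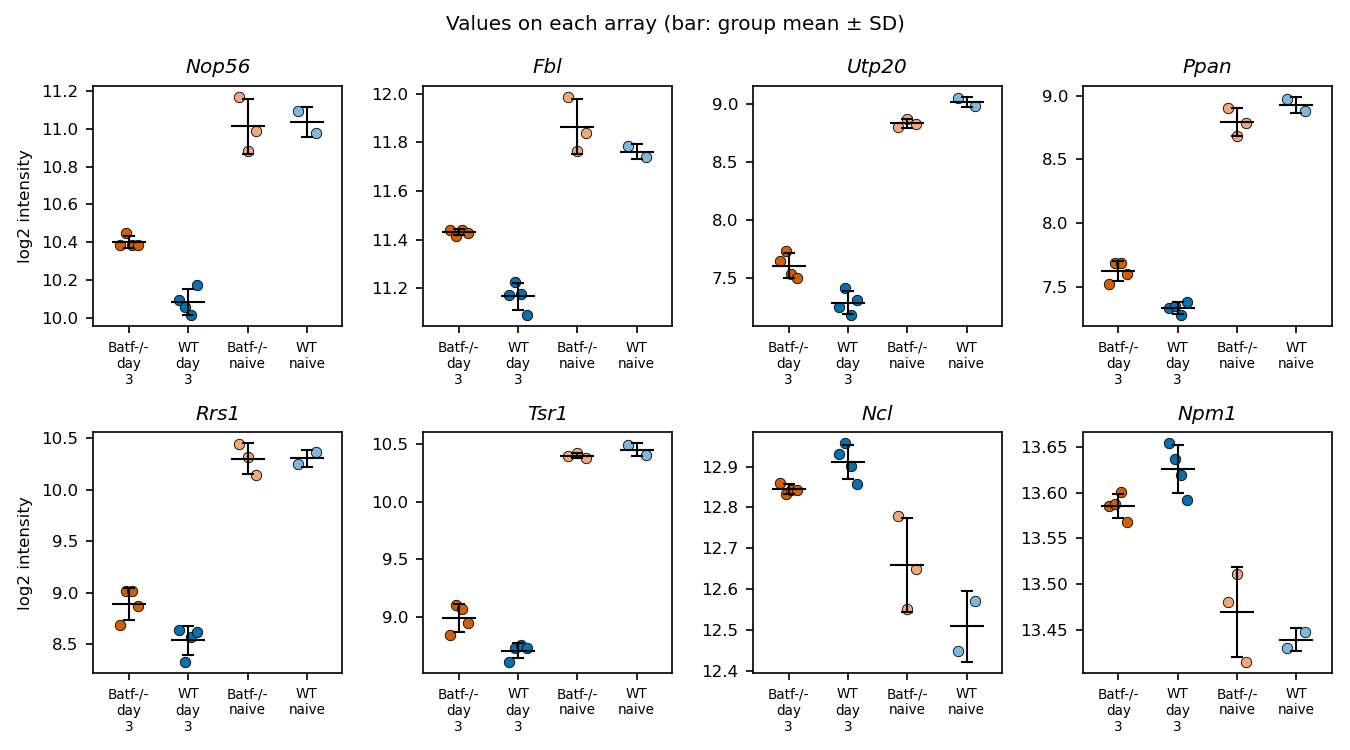
Log2 intensity (vertical axis, a separate scale for each gene) on every array of the 4 groups (horizontal axis) for 8 genes, with a bar for the group mean and whiskers for the SD. In the 6 genes other than Ncl and Npm1 the naive arrays are highest and the wild-type day 3 arrays lowest, with Batf-/- day 3 arrays between them.

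Whether stimulation changed the genes differently in the 2 genotypes was tested as the difference between the 2 changes. No member passed by limma, while 16 had an unadjusted p below 0.05 with a positive difference and 1, Ncl, with a negative one, against 6.18% and 5.69% of all genes. By adjusted p 0.165% of all genes were called higher and 0.484% lower. The difference was above 0 in 37 of 41 genes, against 53.1% of all genes, and its median was 0.23, against 0.01 over all genes. The largest differences were those of Utp20 (0.50 ± 0.11, adjusted p = 0.0731), Ppan (0.42 ± 0.10, adjusted p = 0.0939), Dkc1 (0.41 ± 0.13, adjusted p = 0.201) and Noc2l (0.40 ± 0.10, adjusted p = 0.122). Without Batf-/- naive replicate 1, Polr1b, Nop56, Nop16, Ppan and Gnl3 passed, all with a smaller fall in Batf-/- cells. Utp20 passed when the dim probe sets were left out of the test (adjusted p = 0.0458). The shares of all genes called in these settings were not computed.

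The 2 responses were otherwise alike in order. The changes in Batf-/- and wild-type cells, which share no arrays, had a Pearson r of 0.969 and a Spearman rho of 0.961 over the 41 genes, against a Pearson r of 0.945 over all genes. Genes are not independent replicates and share the normalisation, so this is a description.

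**Figure D4:**
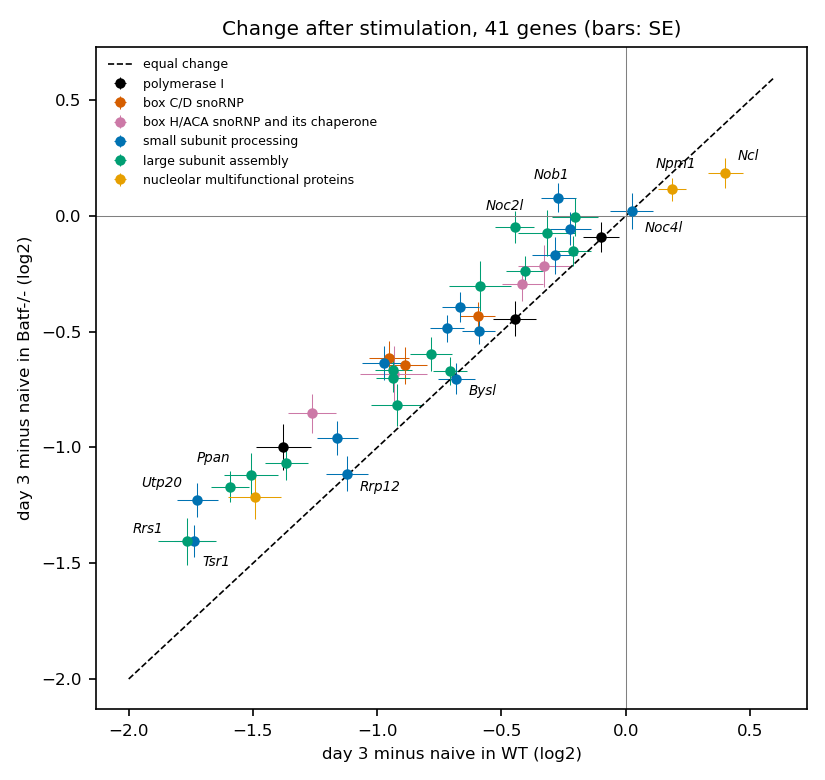
Change from naive to day 3 (log2) in wild-type cells on the horizontal axis and in Batf-/- cells on the vertical axis for the 41 genes, coloured by role, with bars for the SE and a dashed line where both changes are equal. Most points lie in the lower left, above the line, with Rrs1 and Tsr1 at the far end (-1.41 in Batf-/- cells for both), Rrp12 and Bysl close to it, and Ncl below it.

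A further 125 genes of the same pathway, listed by role and outside the 43, gave the wider picture. At day 3 Batf-/- cells had 3 of these higher and 0 lower, against 0.665% and 0.709% of all genes. Their median was 0.11, and 105 of 125 were above 0, against 55.5% of all genes. The 3 were Rpf2 (0.29 ± 0.06), a partner of Rrs1, Znhit6 (0.26 ± 0.06), a factor of box C/D assembly, and Twistnb (0.24 ± 0.05), a polymerase I subunit. After stimulation 71 fell and 19 rose in Batf-/- cells (median -0.26), and 80 fell and 17 rose in wild-type cells (median -0.41). Among all genes 23.2% fell and 23.8% rose in Batf-/- cells, and 23% fell and 22.4% rose in wild-type cells.

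Among these genes Mdn1, a giant ATPase that remodels the large subunit precursor, had the largest fall (-2.03 in Batf-/- and -2.59 in wild-type cells). Pwp2, of the small subunit complex, was at -1.40 in Batf-/- and -1.60 in wild-type cells, and Urb1, of large subunit assembly, at -1.24 in Batf-/- and -1.66 in wild-type cells. The exosome subunit gene Exosc8 rose most, by 1.02 in Batf-/- and by 1.09 in wild-type cells. Polr1d, whose product polymerases I and III share, rose by 0.72 in Batf-/- and by 0.92 in wild-type cells. In 17 genes of the RNA exosome and RNase MRP, which trim and cut the precursor, rises and falls were closer in number, with 4 and 6 in Batf-/- and 4 and 7 in wild-type cells. Over all genes 23.8% rose and 23.2% fell in Batf-/- cells, and 22.4% rose and 23% fell in wild-type cells. Of 43 other large subunit genes, 31 fell in Batf-/- and 34 in wild-type cells, and 1 rose in each.

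Ribosomal protein genes code for the proteins built into the subunits. Of 41 cytosolic ribosomal protein genes, 10 fell and 3 rose in Batf-/- and 8 fell and 1 rose in wild-type cells after stimulation, with medians of -0.07 in each. Shares of all genes were 23.2% falling and 23.8% rising in Batf-/-, and 23% falling and 22.4% rising in wild-type cells. The falls in this list were thus near the share of all genes. Changes of the cytosolic genes ran from -2.06 to 0.23 in Batf-/- and from -1.97 to 0.28 in wild-type cells, with Rpl12 lowest in both. At day 3, 0 passed between Batf-/- and wild type by limma and 1 had an unadjusted p below 0.05 (median 0.01). Of 76 mitochondrial ribosomal protein genes, 15 fell and 36 rose in Batf-/- and 18 fell and 28 rose in wild-type cells. At day 3 their median difference between Batf-/- and wild type was 0.10. Of the 76, 1 was called higher and 67 were above 0, against 0.665% and 55.5% of all genes. These lists were not tested against the ribosome biogenesis genes.

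**Figure D5:**
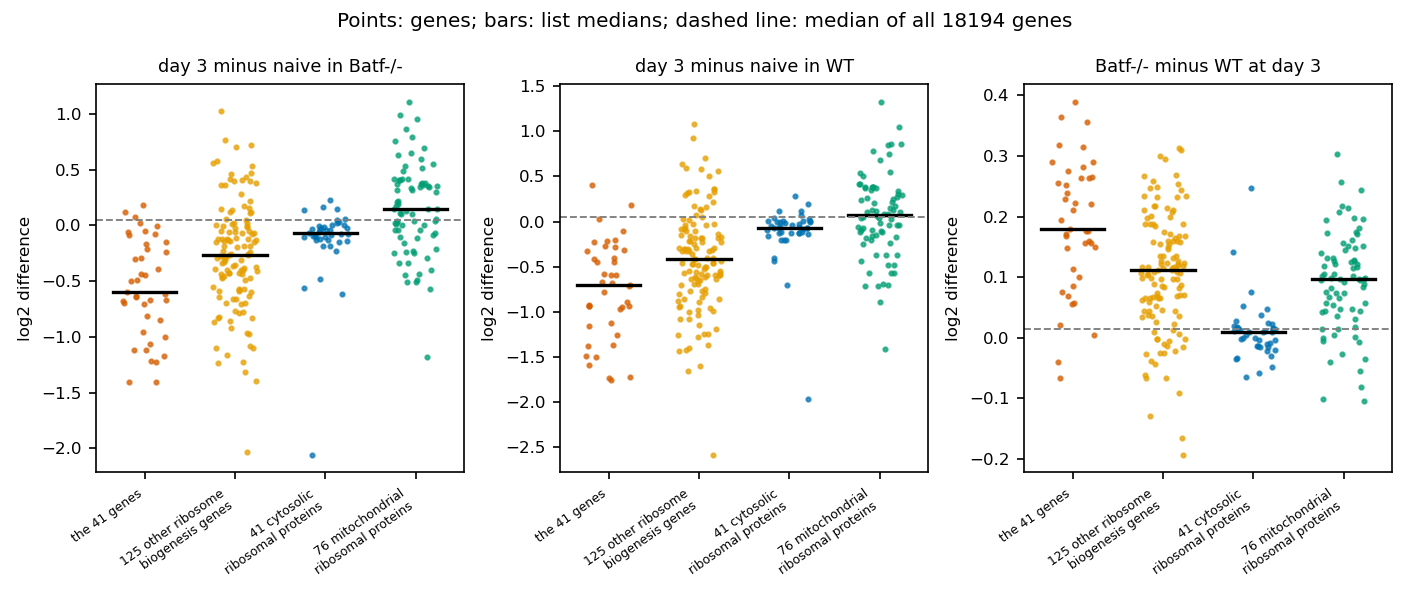
Log2 differences (vertical axis) of single genes (points) in 4 lists (horizontal axis), with list medians as bars and the median of all genes as a dashed line, for day 3 minus naive in Batf-/- and in wild-type cells and for Batf-/- minus wild type at day 3. The ribosome biogenesis genes have medians of -0.60, -0.71 and 0.18, and cytosolic ribosomal protein genes of -0.07, -0.07 and 0.01.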

How the data were processed

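The deposited values are probe set intensities on a linear scale for 45101 probe sets. They were summarised by the authors with RMA, per the submitters' processing notes, which adjusts for background, brings arrays to a common distribution and summarises each probe set; its version is not given in the sources used here. They were converted to log2 here and not normalised again. Of the probe sets 34958 are assigned to 1 gene, 932 to several and 9211 to none by the platform annotation. For 30 of the 41 genes a choice between probe sets was made. Each gene was modelled with 1 mean per group over the 13 arrays, using limma 3.58.1 and R 4.3.3 (9 residual and 3.702 prior degrees of freedom), without a filter on dim probe sets. The alternatives were other normalisations, a filter on dim probe sets, other probe set choices, other estimates of the spread, array weights, the replicate number as a block, calls of at least 2-fold, and each array left out in turn. Values on every array are given for members that passed between the genotypes and for those with the largest and smallest wild-type change in each role. The members and lists were chosen with earlier results of these data known, so no test of a list was made. Promoter sequences are from RefSeq, build GRCm38.p6. The number of arrays limits the precision.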

Additional observations from a re-analysis of the deposited data

Results flagged for a closer look

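In the groups of 4 arrays, 82 sets of values were examined for 1 array far from the other 3, and 3 were found, where chance flags about 1 in 20. Nop56 was at 10.45 in Batf-/- day 3 replicate 2, against 10.38 to 10.39 in the others of the group. Noc3l was at 6.25 in Batf-/- day 3 replicate 3, against 6.43 to 6.46. Tsr1 was at 8.61 in wild-type day 3 replicate 1, against 8.74 to 8.76.

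Myc, the transcription factor named above in the background, changed differently in the 2 genotypes. Its log2 intensity was 9.53, 9.76, 9.79 and 9.79 in Batf-/- day 3 arrays and 9.54, 9.43, 9.44 and 9.46 in wild-type day 3 arrays. In naive arrays it was 9.97, 9.88 and 9.80 in Batf-/- and 10.36 and 10.31 in wild type. The difference between the 2 changes was 0.70 ± 0.11 (limma, adjusted p = 0.0123). Batf-/- minus wild type was -0.45 ± 0.09 in naive cells, which passed (limma, adjusted p = 0.0304). At day 3 it was 0.25 ± 0.07, which did not pass (limma, adjusted p = 0.106). The median of the 41 genes was -0.02 in naive cells and 0.18 at day 3. The part of Myc in the values of these genes was not tested.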

How the results depend on the processing

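The number of members higher in Batf-/- day 3 cells, 4 in the fit reported, was the least stable result. It was 2 with arrays centred on their median, 8 without dim probe sets or with an intensity trend, 21 with array weights, 16 with the day 3 arrays alone, 0 with at least 2-fold, and 0 to 16 when 1 array was left out. For the difference between the changes, 0 members passed as reported, against 1 without dim probe sets, with the mean of all probe sets or with a trend, 8 with array weights, and 0 to 5 when 1 array was left out. Of all genes 3.81% were called higher at day 3 with array weights and 2.01% with the day 3 arrays alone, against 0.665% in the fit reported. For the other settings named so far the shares of all genes were not computed. The cause of these shifts was not tested. Asking for at least 2-fold left 8 members after stimulation in Batf-/- and 11 in wild-type cells, all lower. By this rule 4.86% and 5.39% of all genes were lower. The wild-type median of -0.71 was -0.92 for the mean of all probe sets and -0.89 for the second brightest probe set, an alternative chosen after seeing the data. So was the test of every probe set on its own, in which 0 members passed at day 3 on their brightest probe set. Tsr1 passed there on its second probe set, as given above. Leaving out 1 array gave 28 to 32 calls in Batf-/- and 32 to 39 in wild-type cells after stimulation, where the shares of all genes were not computed. For the mean of all probe sets the sign turned for Ncl (-0.13 in Batf-/- and -0.044 in wild-type cells) and for Rrp1b in Batf-/- cells (0.12). With the replicate block 0 members passed at day 3. No pairing by replicate number was visible over all genes. Deviations of same-numbered arrays correlated at -0.258 to 0.0495 over 16 pairs, and 0 of 13 arrays correlated best with their own number. Deviations of the 2 wild-type naive arrays mirror each other, so these pairs are not independent. A pairing that moves few genes could not be seen this way.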

Other observations

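Probe sets of some members gave unlike values, which the choice of the brightest probe set hides. The 41 genes had 87 probe sets, of which 80 were not dim, and 28 genes had several that were not dim. After stimulation 56 of these 80 probe sets fell in Batf-/- and 64 in wild-type cells, and 3 rose in Batf-/- and 6 in wild-type cells. The share of all probe sets called after stimulation was not computed. With 1 probe set per gene, 23.2% of all genes fell in Batf-/- and 23% in wild-type cells, and 23.8% and 22.4% rose. At day 3, 1 of the 80 was higher in Batf-/- than in wild-type cells, a second probe set of Tsr1, and 0 were lower. For Wdr12 the brightest probe set changed by -0.07 in Batf-/- and -0.32 in wild-type cells, and a second one by -1.58 and -2.35. For Noc2l the 2 probe sets changed by -0.05 and -0.59 in Batf-/- and by -0.45 and -1.23 in wild-type cells. For Ncl 3 probe sets rose and 1 fell in wild-type cells, between 0.53 and -1.05. For Rrp1b the brightest probe set fell and another rose in both genotypes (-0.24 and 0.49 in Batf-/-, -0.41 and 0.42 in wild-type cells).

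Mycn, a relative of Myc, was at 7.45, 7.69, 7.89 and 7.78 in Batf-/- day 3 arrays, against 7.27, 7.12, 7.31 and 6.96 in wild-type day 3 arrays, without overlap (0.54 ± 0.16, limma, adjusted p = 0.152). Within the Batf-/- day 3 group both Myc and Mycn were lowest in replicate 1, the array with the highest Batf value. Ubtf, which activates RNA polymerase I, fell by 1.23 in Batf-/- and by 1.41 in wild-type cells after stimulation, and its difference at day 3 was 0.12 (adjusted p = 0.592).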
